A study of Mus musculus with 4 samples.

Results

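Apolipoproteins are the proteins that coat and direct lipoproteins, the particles that carry cholesterol and triglyceride in blood, and hepatocytes make most of them. The 10 genes described are Apoa1, Apoa2, Apoa4, Apoa5, Apob, Apoc1, Apoc2, Apoc3, Apoc4 and Apoe, found as every probe other than controls that the array files name after one of them. All 10 were measured, among 24637 genes in all, by 13 probes printed as 31 spots on each array. The RNA came from primary hepatocytes of mice whose strain is labelled bl6, grown with 10% fetal bovine serum. All cells were then held overnight in low serum (0.5%) with simvastatin (5 µM), a statin that blocks the cell's own cholesterol synthesis, and mevalonic acid (100 µM), a product of the blocked step. The treated cells also had GW3965 (1 µM), a synthetic compound that activates the liver X receptors (LXR), and the others had the solvent DMSO. Each group had 2 samples, called replicates a and b, each on its own array with 1 colour, and all 4 arrays were on 1 slide. The labels say neither whether a and b came from separate animals nor whether a letter pairs the groups, so the tests measure only the spread between these samples.

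LXRs are nuclear receptors that bind oxysterols and, as partners of RXR, switch on genes of cholesterol efflux and fatty acid synthesis. Among apolipoproteins, they are best known for inducing the gene cluster of Apoe, Apoc1, Apoc2 and Apoc4 in mouse macrophages. In human liver cells, LXR agonists have been described as lowering APOA5. Setting GW3965 against DMSO asks which RNAs the agonist changes in hepatocytes cultured with a statin and mevalonic acid.

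No apolipoprotein gene differed between GW3965 and DMSO beyond the spread between replicates. The mean was higher with GW3965 for 6 of the 10 and lower for 4, the estimates lay between -0.09 and 0.14 on the log2 scale, and 0 of 10 passed the test. The test was limma's moderated test over all genes, two-sided, with Benjamini-Hochberg adjustment and a threshold of 0.05, and it called 0 genes on the whole array (0%). At an unadjusted p under 0.05, 0 of the 10 passed, against 203 of all genes (0.824%). The other difference between the arrays was far larger in these genes: replicate b was lower than replicate a in both groups for 9 of the 10 and higher only for Apoa4. In RNA from a whole culture, fewer cells of a type and less RNA per cell cannot be told apart.

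Most of these genes lie in 2 clusters. On the mm9 build named in the file headers, the probes of Apoc2, Apoc4, Apoc1 and Apoe lie on the minus strand of chromosome 7 within 24.8 kb (chr7:20257027-20281791). Those of Apoa1, Apoc3, Apoa4 and Apoa5 lie on chromosome 9 within 42.1 kb (chr9:46037921-46080002), with the Apoc3 probes on the minus strand and the others on the plus strand. In the RefSeq gene table (GRCm38.p6), the members of each cluster are direct neighbours among protein-coding genes, in those orders. Apoa2 lies on chromosome 1 and Apob on chromosome 12. An annotation of mm9 was not used here, so exon and UTR positions of the probes are not given.

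The probes below are those of the genes that the differences between replicates turn on, with Apoe as the best-known LXR target among the 10 and both probes of Apob, which behaved unlike each other. They are the 60-base targets as the files give them, 5′ to 3′, with no part marked. The Apoa4 probe spans 744 genomic bases and the Apoc4 probe 357, so both cross a splice junction.
Apoa1 (chr9:46037921-46037980, plus strand): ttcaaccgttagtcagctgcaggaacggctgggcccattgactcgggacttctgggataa
Apoa4 (chr9:46049661-46050404, plus strand, spliced): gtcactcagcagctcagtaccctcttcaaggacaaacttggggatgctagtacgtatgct
Apoc4 (chr7:20263609-20263965, minus strand, spliced): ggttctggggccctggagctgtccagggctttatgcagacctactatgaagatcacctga
Apoe (chr7:20281732-20281791, minus strand): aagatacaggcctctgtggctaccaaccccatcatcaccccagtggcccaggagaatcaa
Apob, 5′ probe (chr12:8012697-8012756, plus strand): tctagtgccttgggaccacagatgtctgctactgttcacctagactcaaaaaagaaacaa
Apob, 3′ probe (chr12:8023194-8023253, plus strand): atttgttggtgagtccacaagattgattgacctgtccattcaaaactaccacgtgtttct

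Every member was read above background, but Apoa5 only faintly. Its processed signal was 37 to 43, against medians over all probes of 37 to 54 on the 4 arrays. All 124 member spots, 31 on each of 4 arrays, were well above background by the scanner software, and 0 were saturated. Only 2 of them were marked as outliers and left out, both of Apoe on DMSO replicate a. Over all probes, 64.1% and 69.1% were well above background with GW3965 (a and b), against 62.5% and 65.2% with DMSO (a and b). Apoa1 and Apoe were printed 10 times each, and the SD of their log2 signal among spots of 1 array was 0.027 to 0.053 for Apoa1 and 0.066 to 0.091 for Apoe. In both genes that spread among spots was smaller than the gap between replicates of either group, given further on.

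Levels are given as log2 of the scanner's processed signal minus the array's 75th percentile, so that 0 is the signal at that percentile. Probes differ in how brightly they bind, so levels are compared between arrays for 1 probe and never between genes. Errors of differences are standard errors from limma.

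Apoa1, the main protein of HDL, read 4.83 and 3.62 on GW3965 replicates a and b, against 4.75 and 3.65 on DMSO replicates a and b. The groups overlapped completely, with both a arrays high and both b arrays more than 1 unit lower. The log2 difference was 0.03 ± 0.56, a fold of 1.02 with a 95% interval of 0.369 to 2.82. Apoa2, the second HDL protein, read 9.20 and 8.16 with GW3965, against 9.20 and 8.34 with DMSO. Both a arrays had the same value to 2 decimals, and the b arrays were again lower. The difference was -0.09 ± 0.47, a fold of 0.939 (0.397 to 2.22).

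Apob, the large structural protein of VLDL and LDL, with 1 molecule on each particle, read 5.04 and 4.56 with GW3965, against 4.96 and 4.56 with DMSO. These are the 3′ probe's values, and the b arrays of the 2 groups were equal to 2 decimals. The difference was 0.04 ± 0.27, a fold of 1.03 (0.630 to 1.69).

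Apoe, the ligand through which remnant particles are taken up by hepatocytes, read 9.36 and 8.70 with GW3965, against 9.21 and 8.87 with DMSO. Its processed signals were 334859 and 279403 with GW3965, against 322393 and 282484 with DMSO. The 2 GW3965 arrays enclosed both DMSO arrays. The difference was -0.01 ± 0.30, a fold of 0.993 (0.574 to 1.72). In this fit, which ignores the replicate letters, an induction above 1.72-fold lies outside the interval and a smaller one does not. With the letter as a term in the fit the interval was 0.777 to 1.27, but the labels do not pair the letters.

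Apoc1, a small exchangeable protein that slows the uptake of remnants, read 9.17 and 8.49 with GW3965, against 9.00 and 8.74 with DMSO. Here too the GW3965 arrays enclosed the DMSO arrays, and the difference was -0.04 ± 0.30 (fold 0.970, 0.567 to 1.66). Apoc2, the cofactor that lipoprotein lipase needs, read 4.42 and 3.71 with GW3965, against 4.28 and 3.83 with DMSO. Its difference was 0.01 ± 0.33 (fold 1.01, 0.556 to 1.82). On this scale the highest array and the lowest were both treated ones, as in every other member except Apoc3. In processed signal the lowest Apoc2 array was DMSO replicate b, at 8618 against 8825 on GW3965 replicate b.

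Apoc4, the least studied gene of the cluster, read 4.31 and 2.90 with GW3965, against 4.19 and 2.92 with DMSO. The a arrays were high and the b arrays low in both groups, by more than 1 unit. The difference was 0.05 ± 0.64 (fold 1.04, 0.322 to 3.33). For the 4 genes of the chromosome 7 cluster the differences thus lay between -0.04 and 0.05. Their upper interval bounds ran from 1.66-fold to 3.33-fold in the fit that ignores the letters.

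Apoc3, which inhibits lipoprotein lipase and lies beside Apoa1, read 6.82 and 6.15 with GW3965, against 6.85 and 6.24 with DMSO. The difference was -0.06 ± 0.35 (fold 0.960, 0.512 to 1.80). Apoa5, a scarce plasma protein that promotes lipolysis by lipoprotein lipase, read -3.56 and -4.07 with GW3965, against -3.85 and -4.05 with DMSO. This was the largest estimate of the 10, 0.14 ± 0.25 (fold 1.10, 0.695 to 1.74), with the DMSO arrays lying between the GW3965 arrays. The rank depended on how background was removed from this faint probe and on how arrays were scaled. With quantile normalization the estimate was 0.08, below those of Apoe and Apoa4, both at 0.09. With normexp background correction the estimate was 0.03, below that of Apoa4 at 0.10.

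Apoa4, made by intestine and, in mice, also by liver, where fasting and fat loading raise it, read -0.89 and 1.03 with GW3965, against -0.78 and 0.76 with DMSO. It was the one member with high b arrays and low a arrays, and its processed signal was 275 and 1372 with GW3965, against 316 and 1025 with DMSO. The difference was 0.08 ± 0.82, a fold of 1.06 with the widest interval of the 10, 0.238 to 4.69.

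**Figure D1:**
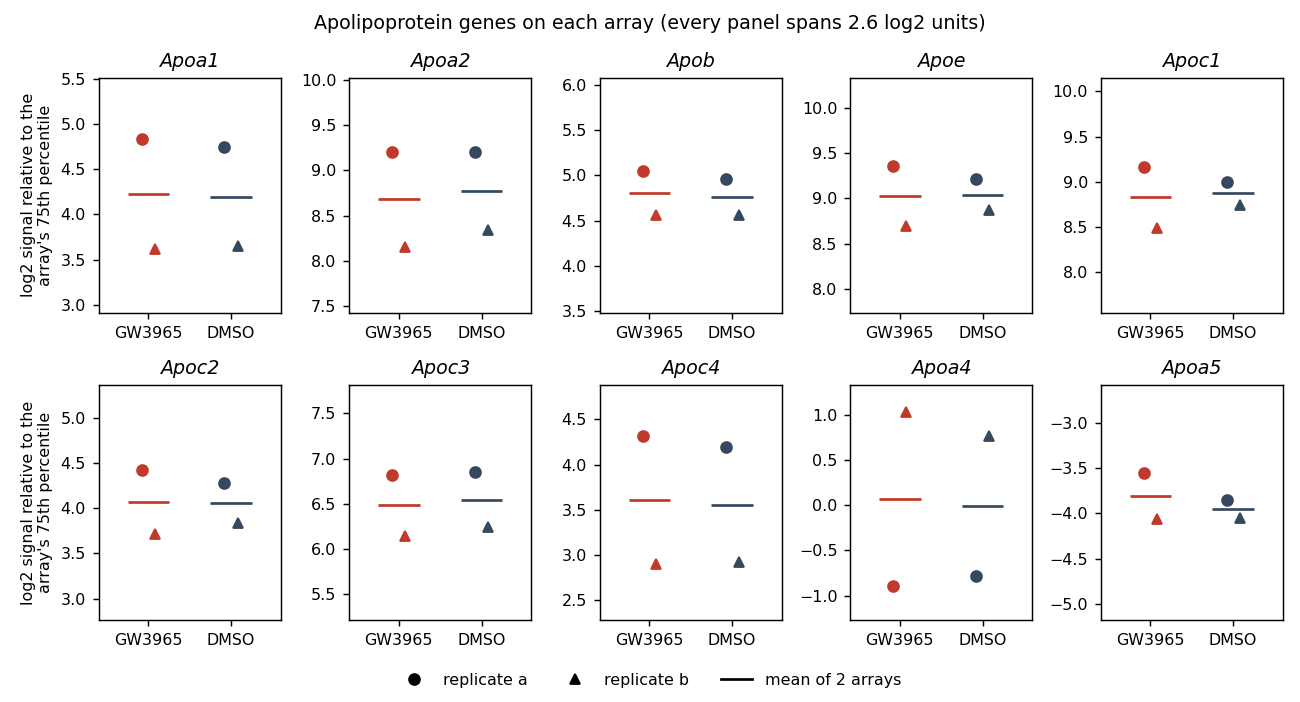
Log2 signal relative to the array's 75th percentile for the 10 apolipoprotein genes, with GW3965 on the left and DMSO on the right of each panel, circles for replicate a, triangles for replicate b and a bar for the mean of 2 arrays. The group bars are nearly level in every panel, while the triangle is below the circle in both groups for 9 genes and above it for Apoa4.

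The adjusted p was 1.00 for each of the 10 genes in limma's fit, and the unadjusted p lay between 0.612 and 0.979. The median log2 difference over the members was 0.02, and over all genes it was -0.01 with an SD of 0.24. The middle 95% of all genes lay between -0.32 and 0.48, and all 10 members were inside it. The two-sided exact permutation test for 2 against 2 arrays cannot give a p below 0.333, so it was not used to call a gene. The 2 arrays of GW3965 and the 2 of DMSO did not separate for any of the 10 members, against 3930 of all genes (16%). The standard errors of the members, 0.25 to 0.82, were all above the median of 0.23 over all genes, so the comparison was less precise for each of them than for the middle gene.

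**Figure D2:**
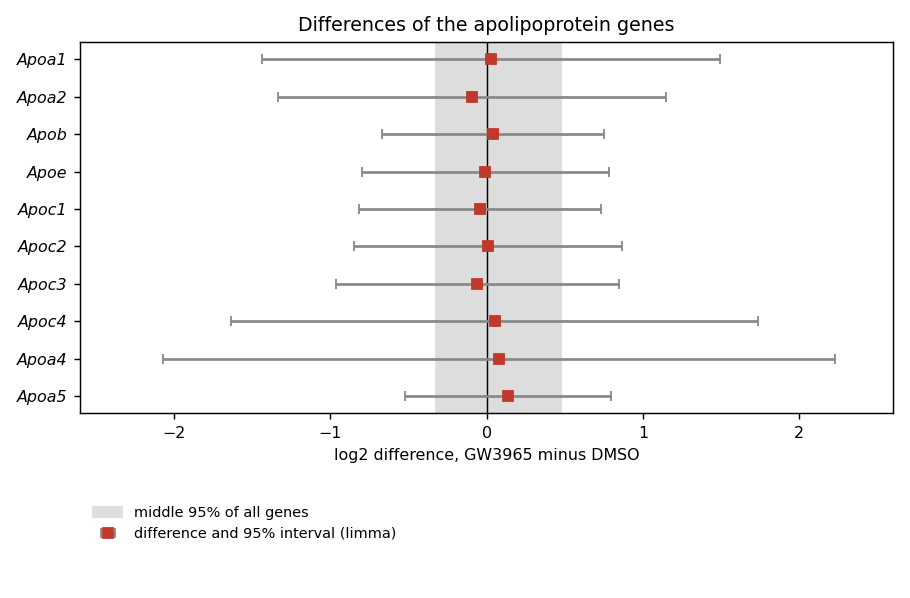
Log2 difference of GW3965 minus DMSO for each apolipoprotein gene (squares) with its 95% interval from limma (lines, n = 2 arrays a group) over the middle 95% of all genes (grey band, -0.32 to 0.48). Every interval includes 0 and reaches beyond the band on both sides, and that of Apoa4 is the widest, from -2.07 to 2.23.

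Set letter against letter, the members moved by small amounts. On the a arrays, GW3965 minus DMSO ran from -0.11 to 0.29 and was above 0 for 8 of the 10. On the b arrays it ran from -0.25 to 0.26 and was above 0 for 1 of the 10, Apoa4. On this scale the direction on the a arrays was therefore not that on the b arrays for most of the genes. These counts depended on the scaling, and the shares over all genes were not computed. In processed signal on the b arrays, Apoa1, Apoa4, Apoa5, Apob, Apoc2, Apoc3 and Apoc4 were higher with GW3965, and Apoa2, Apoc1 and Apoe lower. On the a arrays only Apoa5, Apoc1, Apoc2, Apoc4 and Apoe were higher. Nothing in the labels says that equal letters belong together.

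The spread between replicates had a direction. Replicate b minus replicate a was -1.20 with GW3965 and -1.10 with DMSO for Apoa1, which is 2.30-fold and 2.14-fold lower on b. For Apoc4 it was -1.41 with GW3965 and -1.27 with DMSO, 2.66-fold and 2.41-fold lower. For Apoa2 it was -1.04 with GW3965 and -0.86 with DMSO. By the probe used for each gene, these 3 had the widest gaps among the 9 that were lower on b, and they lie on 3 chromosomes. The 5′ probe of Apob, not the one used, had gaps of -1.32 with GW3965 and -0.85 with DMSO.

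The others of the 9 had smaller gaps of the same sign. Apoc3 differed by -0.68 with GW3965 and -0.61 with DMSO, and Apob by -0.48 with GW3965 and -0.40 with DMSO. Apoc1 differed by -0.67 with GW3965 and -0.26 with DMSO, Apoc2 by -0.71 and -0.45, and Apoe by -0.66 and -0.34. Apoa5 had the smallest gap with DMSO, -0.20, and one of -0.51 with GW3965. Apoa4 went the other way by 1.92 with GW3965 and 1.54 with DMSO, which is 3.77-fold and 2.92-fold higher on b. On this scale the gap was wider in the GW3965 pair than in the DMSO pair for all 10 genes. That order depended on the scaling. Without scaling between arrays, the median size of the members' gap was 0.29 with GW3965 and 0.38 with DMSO. The share of all genes with a wider gap in the GW3965 pair was not computed.

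Lower on b in both groups were 9 of the 10 members, against 7824 of all genes (31.8%), and higher on b in both were 1 of the 10, against 10689 of all genes (43.4%). A gap of at least 2-fold downwards in both groups was seen in 2 members, Apoa1 and Apoc4, against 492 of all genes (2%). One of at least 2-fold upwards in both was seen in 1, Apoa4, against 462 of all genes (1.88%). The median gap of the members was -0.68 with GW3965 and -0.42 with DMSO, against 0.05 and 0.08 over all genes, where the SD was 0.56 in either group. By the mean gap of the 2 groups, 99.5% of genes lay below Apoa4, 1.44% below Apoc4, 2.06% below Apoa1 and 3.25% below Apoa2. For Apoc3, Apoc2, Apoe, Apoc1, Apob and Apoa5 that share was between 6.99% and 15.7%.

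**Figure D3:**
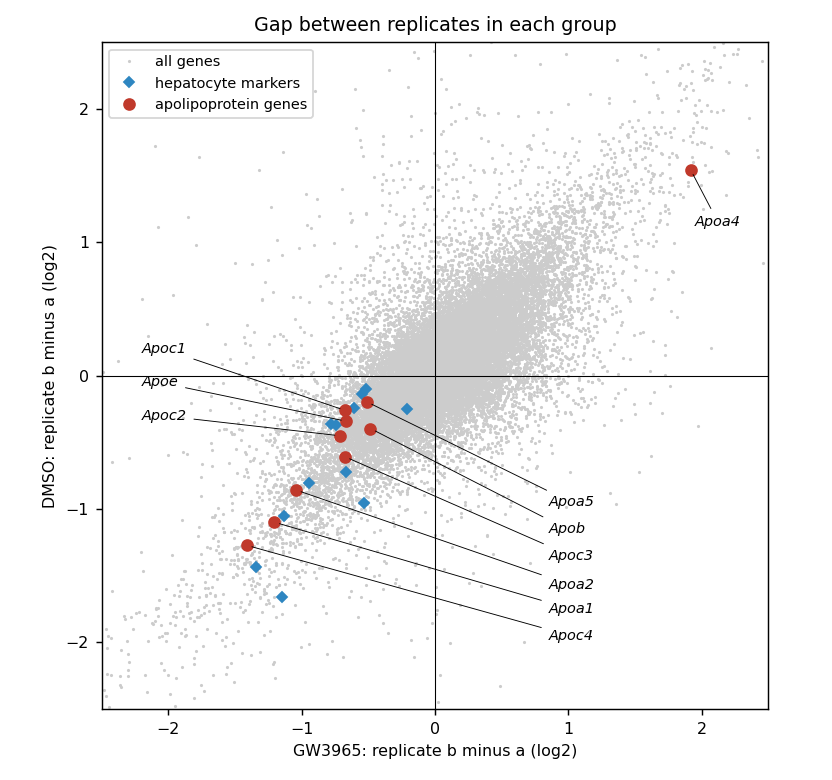
Replicate b minus replicate a in the GW3965 pair (x axis, log2) and in the DMSO pair (y axis, log2) for all genes (grey), hepatocyte markers (blue diamonds) and the apolipoprotein genes (red, labelled), with 144 genes outside the axes, the hepatocyte markers Ahsg and Fgb among them. Of the apolipoprotein genes, 9 lie in the lower left quadrant and Apoa4 lies in the upper right at 1.92 and 1.54.

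The signs of the gaps did not rest on how arrays were scaled. With no scaling at all, with normexp background correction, with arrays centred on their median or with quantile normalization, the same 9 members were lower on b in both groups and Apoa4 higher. Without scaling, the median gap over all genes was 0.45 with GW3965 and 0.23 with DMSO, so that only 13.2% of all genes were lower on b in both, and the members' median was -0.27 in each group.

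Markers of the cell types that a hepatocyte culture can hold moved with the letters too. Of the 15 hepatocyte markers, 14 were kept, and each of these was well above background on all 4 arrays. All 14 were lower on b in both groups, with a median gap of -0.76 in each group. Their summed level, in units of the array's 75th percentile, was 4476 and 2592 on GW3965 replicates a and b, against 4202 and 3100 on DMSO replicates a and b. Of the 15 macrophage and leukocyte markers 14 were kept, and 12 were lower on b in both groups. Their median gap was -0.92 with GW3965 and -0.68 with DMSO, and their sum was 142 and 89.6 with GW3965, against 128 and 82.5 with DMSO. Macrophages also make Apoe, Apoc1, Apoc2 and Apoc4, and their share in these RNAs was not tested.

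The other marker lists did not share that direction throughout. Endothelial markers, 8 of 8 kept, had a median gap of 0.93 with GW3965 and 0.68 with DMSO, and their sum was 34.6 and 44.7 with GW3965, against 32.9 and 41.8 with DMSO. Stellate cell and fibroblast markers, 7 of 8 kept, had median gaps of 0.29 with GW3965 and 0.41 with DMSO. Their sum was lower on b, at 83.3 and 51.9 with GW3965, against 78.3 and 52.4 with DMSO. A sum weights bright probes, here Dcn, which read 6.16 and 4.77 with GW3965, against 6.10 and 4.93 with DMSO. Of this list 4 markers were higher on b in both groups and 2 lower. Cholangiocyte markers, 5 of 6 kept, had median gaps of 0.03 with GW3965 and 0.31 with DMSO. Their sum, mostly Spp1, was 57.4 and 63.9 with GW3965, against 62.6 and 76.2 with DMSO. A marker was kept only if it was well above background on 2 arrays of the same group. The counts kept therefore leave out dim markers and do not show that a cell type was present. What part the cell makeup had in the gaps of the apolipoprotein genes was not tested. Between the treatments, the median log2 difference was -0.01 for the hepatocyte markers, -0.01 for the macrophage markers, 0.15 for the endothelial markers, 0.13 for the stellate cell markers and -0.22 for the cholangiocyte markers. In each of these 5 lists 0 markers had an unadjusted p under 0.05 in limma's fit.

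Of the 10 genes, 3 had a second probe. The Apoa2 probes lie in the same stretch of chromosome 1 and gave like results, with a difference of -0.12 ± 0.43 for the second against -0.09 ± 0.47, and gaps of -0.96 with GW3965 and -0.73 with DMSO. The Apob probes lie 10.6 kb apart from end to end, and the 5′ one gave -0.11 ± 0.54 against 0.04 ± 0.27 for the 3′ one. The 5′ probe read 4.89 and 3.58 with GW3965, against 4.77 and 3.92 with DMSO. Its gaps, -1.32 with GW3965 and -0.85 with DMSO, were more than 2 times those of the 3′ probe, so the replicates differed more at the 5′ site than at the 3′ site of the same long transcript.

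The second Apoc3 probe is annotated to another, Ensembl-listed transcript of the gene at chr9:46043606-46043665. It read -1.03 and -0.85 with GW3965, against -0.94 and -1.00 with DMSO, a difference of 0.03 ± 0.20. Its gaps, 0.18 with GW3965 and -0.07 with DMSO, did not share the direction of the main Apoc3 probe's gaps. None of the 3 second probes passed limma's test, with an adjusted p of 1.00 when each probe was fitted on its own.

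**Figure D4:**
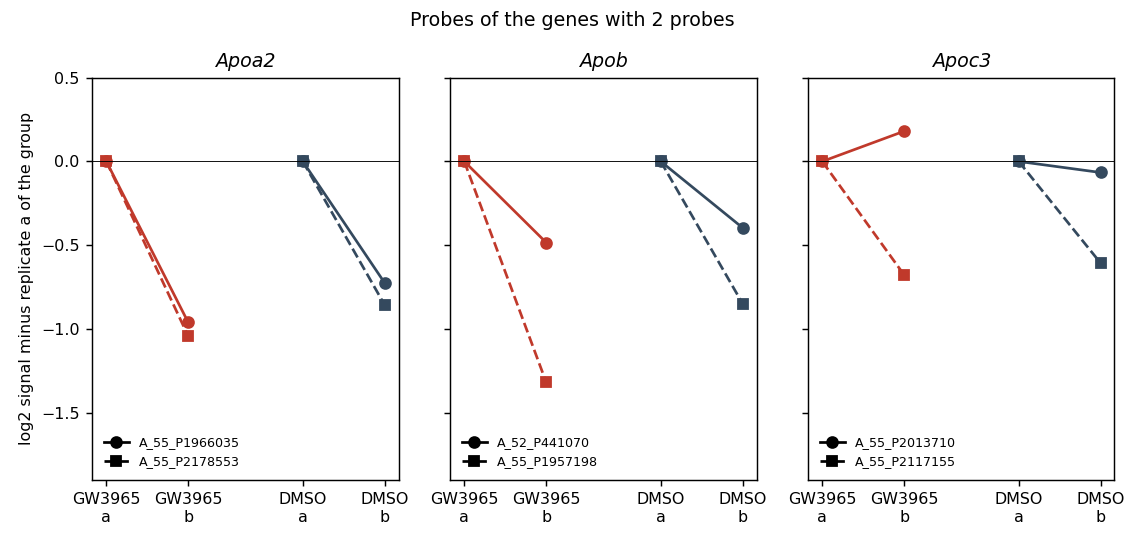
Log2 signal relative to replicate a of the same group for the 2 probes of Apoa2, Apob and Apoc3, with the GW3965 pair (red) left of the DMSO pair (dark) and probe names as on the array. The Apoa2 lines run together, the Apob lines part at -1.32 and -0.48 on GW3965 replicate b, and only 1 of the Apoc3 probes is clearly lower on b.

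The promoters of Apoa1 and Apoa4, in the same cluster on chromosome 9 with opposite gaps, and of Apoc2 and Apoc4, neighbours on chromosome 7 with the same direction, are shown because these pairs carry the contrast. They are RefSeq sequences on GRCm38.p6, from 250 bases before the gene's start to 50 after, 5′ to 3′ on the gene's strand. Capitals mark AGGTCA, the half-site that LXR and many other nuclear receptors bind, or TATAAA, the TATA box, on either strand.
Apoa1 (chr9:46228380-46228679, plus strand): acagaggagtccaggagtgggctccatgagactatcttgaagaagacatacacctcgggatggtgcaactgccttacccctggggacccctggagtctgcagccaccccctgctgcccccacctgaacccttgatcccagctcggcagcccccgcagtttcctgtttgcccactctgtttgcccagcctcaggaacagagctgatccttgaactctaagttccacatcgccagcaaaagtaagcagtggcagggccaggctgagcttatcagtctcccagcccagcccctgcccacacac
Apoa4 (chr9:46240594-46240893, plus strand): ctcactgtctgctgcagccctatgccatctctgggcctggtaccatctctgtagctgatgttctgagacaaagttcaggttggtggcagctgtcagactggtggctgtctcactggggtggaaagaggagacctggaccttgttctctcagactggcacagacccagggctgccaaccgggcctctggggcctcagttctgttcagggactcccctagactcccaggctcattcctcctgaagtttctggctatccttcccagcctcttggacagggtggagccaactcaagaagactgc
Apoc2 (chr7:19677892-19678191, minus strand): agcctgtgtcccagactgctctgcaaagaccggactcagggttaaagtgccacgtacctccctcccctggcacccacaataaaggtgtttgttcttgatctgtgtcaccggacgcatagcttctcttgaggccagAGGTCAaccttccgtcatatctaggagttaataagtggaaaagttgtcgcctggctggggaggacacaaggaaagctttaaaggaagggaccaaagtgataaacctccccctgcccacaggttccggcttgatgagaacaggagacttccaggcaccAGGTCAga
Apoc4 (chr7:19681411-19681710, minus strand): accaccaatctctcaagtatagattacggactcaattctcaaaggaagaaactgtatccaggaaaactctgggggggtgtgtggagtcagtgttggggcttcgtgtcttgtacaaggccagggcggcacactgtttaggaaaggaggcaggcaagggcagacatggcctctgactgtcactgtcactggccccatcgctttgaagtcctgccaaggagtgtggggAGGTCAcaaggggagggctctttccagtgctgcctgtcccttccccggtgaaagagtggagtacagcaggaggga

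The table held 12 promoters for 8 of the 10 genes, with Apoc1 and Apoc3 not among them. AGGTCA was present in 3 of the 12, those of Apoc2 (first bases at -115 and 42 relative to the start), Apoc4 (at -25) and 1 of the Apoa2 promoters, against 16.3% of all 32851 promoters of that length. TATAAA was present in 5 of the 12, of Apoa2, Apoa5, Apob and Apoe, against 13.6%. The Apoa5 promoters overlap and share the same match, so it is counted more than once, and the Apoa2 match starts at -212. Both strands were searched, and in 1 Apoe promoter the 2 matches of TATAAA overlap. The LXR element, 2 half-sites in the same direction with 4 bases between them, was searched only as the exact string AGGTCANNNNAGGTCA. It was in 0 of the 12 and in 5 of all promoters (0.015%). A string so rare would hardly be met in 12 promoters, so its absence does not show that they lack LXR elements. Elements with other letters were not searched. Another direct repeat of the half-site, with 1 base between (AGGTCANAGGTCA) and so not the LXR element, was in 0 of the 12 and in 13 of all (0.04%). A match is only a match of letters, and enhancers outside these windows were not searched, such as the ones that serve the Apoe cluster in liver and macrophages.

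Genes that work with apolipoproteins were read in the same fit, in 7 lists, and 0 of them passed after adjustment. In HDL formation, 9 of 10 listed genes were measured, with a median difference of 0.08, and 2 had an unadjusted p under 0.05. Abca1, the pump that loads Apoa1 with cholesterol, read 3.31 and 3.85 with GW3965, against 1.46 and 0.55 with DMSO, a difference of 2.58 ± 0.39. Abcg1, which passes cholesterol on to HDL, differed by 1.98 ± 0.29. In both, every GW3965 array was above every DMSO array, yet the adjusted p in limma's fit was 1.00 for each, where the smallest over all genes was 0.940. Abca1 and Abcg1 were the 2 of the 9 measured genes whose groups did not overlap, against 16% of all genes. Pltp, which moves phospholipid between lipoproteins, differed by 0.19 ± 0.27, and Pon3, an esterase carried on HDL, by -0.19 ± 0.21.

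Of the 13 genes of the assembly and secretion of Apob particles, 7 had a higher mean with GW3965 and 6 a lower one, with a median of 0.00 and 0 at an unadjusted p under 0.05. Mttp, which loads lipid onto the Apob protein, read 2.51 and 2.22 with GW3965, against 2.52 and 2.64 with DMSO. Both treated arrays were lower, by 0.22 ± 0.21 on the log2 scale. It was the 1 gene of the 13 whose groups did not overlap, against 16% of all genes. Surf4 and Sar1b, which help Apob particles leave the endoplasmic reticulum, differed by -0.16 ± 0.22 and -0.11 ± 0.19. Plin2, a coat protein of lipid droplets, differed by 0.16 ± 0.27. The smallest unadjusted p in the list was 0.342, that of Mttp, in limma's fit.

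Editing of the Apob mRNA, by which mouse liver makes the short form of the protein, was covered by 4 genes, and 0 of them had an unadjusted p under 0.05. Apobec1, the editing enzyme, differed by -0.02 ± 0.37, its cofactor Rbm47 by 0.03 ± 0.29 and Syncrip by -0.17 ± 0.21. A1cf, another cofactor, was well above background on 3 of the 4 arrays, so no fold is given for it. The edited form itself was not measured.

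Lipolysis of triglyceride-rich particles, which Apoc2, Apoc3 and Apoa5 control, had 7 of 7 genes measured, a median of 0.06 and 0 at an unadjusted p under 0.05. Lpl, the lipase itself and an LXR target in mice, read 0.79 and 0.11 with GW3965, against 0.33 and -0.30 with DMSO, a difference of 0.44 ± 0.35 with overlapping groups. Gpld1, a phospholipase, was lower on both treated arrays, by 0.23 ± 0.20 on the log2 scale. It was the 1 gene of the 7 whose groups did not overlap, against 16% of all genes. Angptl8, an inhibitor of the lipase, differed by 0.11 ± 0.25, and Lmf1, which folds the lipase, by 0.06 ± 0.19.

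Of the 10 lipoprotein receptors and their regulators, through which Apob and Apoe are taken up, 7 had a higher mean with GW3965 and 3 a lower one, with a median of 0.15. Mylip, a ubiquitin ligase and LXR target, read 0.48 and 1.16 with GW3965, against -0.27 and -0.08 with DMSO, a difference of 0.99 ± 0.29. It was the 1 gene of the list with an unadjusted p under 0.05.

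The 19 transcription factors known to act on apolipoprotein genes had a median of -0.02, with 8 higher and 11 lower means. Srebf1, a direct LXR target that drives fatty acid synthesis, read 0.37 and 0.43 with GW3965, against -0.96 and -0.72 with DMSO, a difference of 1.24 ± 0.20. It was the 1 factor with an unadjusted p under 0.05. Foxo1 differed by 0.38 ± 0.20 and Rxra, the partner of LXR, by 0.14 ± 0.18. In both and in Srebf1 the groups did not overlap, 3 of the 19 factors, against 16% of all genes. Nr1h3, which encodes LXR alpha, differed by 0.00 ± 0.47, Hnf4a, a main driver of apolipoprotein genes in liver, by -0.25 ± 0.71, and Nr1h4, the bile acid receptor, by -0.31 ± 0.30. Hnf4a read 4.03 and 2.35 with GW3965, against 4.08 and 2.79 with DMSO, and so shared the low b arrays of 9 of the apolipoprotein genes.

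Of 14 other genes named as apolipoproteins, 13 were measured, with 5 higher and 8 lower means, a median of -0.05 and 0 at an unadjusted p under 0.05. Apoh, a plasma glycoprotein also called beta-2-glycoprotein, differed by -0.05 ± 0.28, Apom, the HDL carrier of sphingosine-1-phosphate, by 0.08 ± 0.43, and Clu, a chaperone found on HDL, by -0.12 ± 0.30. Apoo and Apool, which are mitochondrial membrane proteins in spite of their names, differed by -0.13 ± 0.20 and -0.09 ± 0.19. Apol9a and Apol9b, by 0.30 ± 0.49 and 0.28 ± 0.50, are near-identical copies whose probes may not tell them apart. In this list 10 of the 13 were lower on b in both groups.

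**Figure D5:**
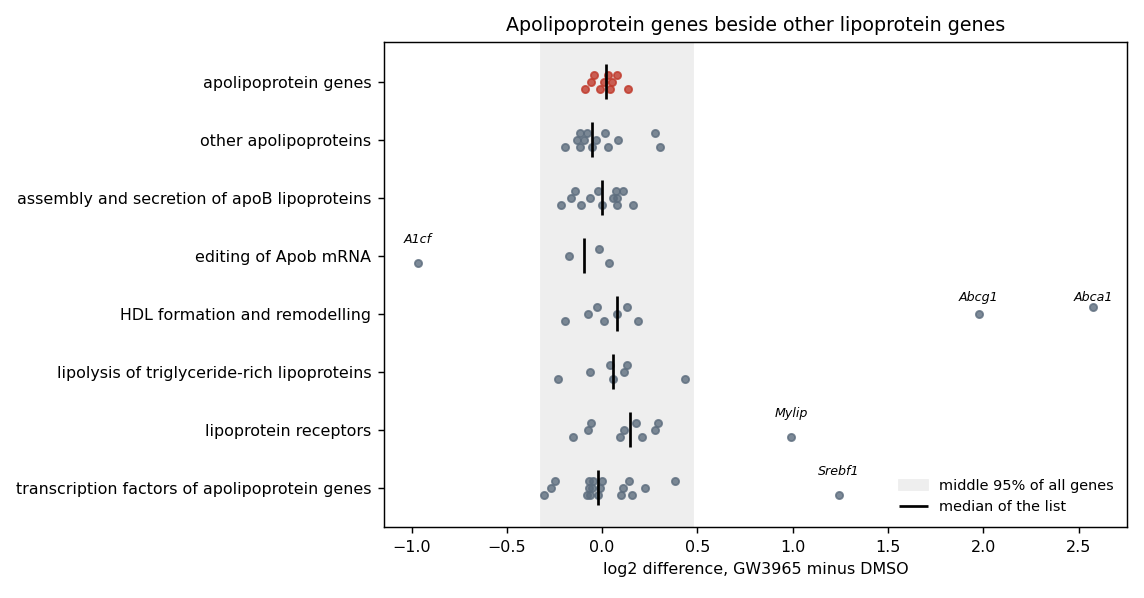
Log2 difference of GW3965 minus DMSO for each gene (points) of the apolipoprotein genes (red) and of 7 companion lists (grey blue), with each list's median (black bar) over the middle 95% of all genes (grey band). The apolipoprotein genes lie between -0.09 and 0.14, while Abca1 at 2.58, Abcg1 at 1.98, Srebf1 at 1.24 and Mylip at 0.99 lie right of the band, and A1cf, at background on 1 array, lies left of it.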

How the data were processed

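RNA levels were measured in 2 GW3965 and 2 DMSO samples on 1-colour Agilent arrays of design 028005, 1 slide and 1 scan day. Per the file headers, the deposited values are spot intensity on a linear scale from Agilent Feature Extraction 10.7.3.1, with background and spatial trend removed but no scaling across arrays. Version 11.5.1.11 stands in the submitters' processing notes instead. The authors also deposited these intensity values as a series table, with a largest difference of 0. The treated samples' treatment label reads LXR against GW3965 and the scanner's names abbreviate it as GL, so GW3965 is used as the titles and protocol give it.

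Of 55681 probes, 26756 were named through RefSeq accessions and 28925 kept the file's name. Outlier spots were left out (141 and 88 on GW3965 a and b, 135 and 83 on DMSO a and b), which removed 9 probes. Log2 signals were averaged over spots, and each array's 75th percentile was subtracted. Probes had to be well above background on 2 arrays of the same group (35478 were), and the probe with the highest mean stood for a gene. The comparison was fitted in limma 3.58.1 (R 4.3.3), without a block (prior degrees of freedom 2.72, residual 2), and p-values were adjusted by Benjamini-Hochberg over 24637 genes. The code was tested on simulated data. The number of arrays limits the precision. Files were read with data.table (version 1.17.8) and pandas 2.3.3, and figures drawn with matplotlib 3.10.9.

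The members and all lists were chosen with earlier results of these data known. All members and their probes are given, and of each companion list up to 4 genes with the smallest p, plus Abca1, Srebf1, Lpl, Pltp, Mttp, Nr1h3, Hnf4a, Apoh, Apom and Clu. Some genes that this rule names are not reported here. The alternatives were quantile normalization, median centring, normexp (offset 50), the deposited value table, no filter or one that asks for all arrays, probe means or each probe alone, a trended or robust prior, an adjusted p under 0.1, a block for the replicate letter, leaving out each array and, chosen after seeing the data, no scaling.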

Additional observations from a re-analysis of the deposited data

How the results depend on the processing

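None of the 10 apolipoprotein genes was called under any of the 17 alternatives, and their smallest adjusted p in limma was 0.987. Their median difference of 0.02 ranged from -0.03 (arrays centred on the median) to 0.05 (quantile normalization), and when 1 array was left out from -0.36 (the a array of GW3965) to 0.34 (its b array). With 1 array left in a group, the lone array is assumed to vary like the other group. Of 160 values for single members under alternatives, 144 moved by less than the gene's standard error in limma's fit. Among the 144 are settings that leave an estimate as it is, such as the trended or robust prior, the block and the identical deposited values. The 16 that moved more were all without a GW3965 array, and none of them was of Apob or Apoc3. The median size of the gap between replicates lay between 0.29 and 0.83 with GW3965 and between 0.38 and 0.64 with DMSO, against 0.69 and 0.53 as reported.

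Over all genes, 0 calls became 15 (10 higher) with the replicate letter as a block (smallest adjusted p 0.00654), none of them a member, and lay between 0 and 1 with 1 array left out, the 1 being without DMSO replicate b. In all other alternatives it was 0. Genes at an unadjusted p under 0.05, 203 as reported, numbered 1335 with the block, 537 without a filter, 364 by probe, 129 without scaling, 115 with a trended prior, 95 with the filter on all arrays, 56 with normexp and 416 without DMSO replicate b. With the block the members' standard errors were 0.13 to 0.15, their intervals lay within -0.42 and 0.49, and the smallest unadjusted p was 0.374. The correlation of the deviations of same-letter arrays from their group means was 0.72 over genes, a hint from the data and not the design, since the labels do not pair the letters and 2 pairs are too few to tell.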

Other observations

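Among the other genes named as apolipoproteins, 4 had gaps between replicates of more than 1 log2 unit in both groups and were picked for that after their values were seen. Apof, an inhibitor of cholesteryl ester transfer, was lower on replicate b, by -1.73 with GW3965 and -1.55 with DMSO. Apon was lower on b too, by -1.32 with GW3965 and -1.56 with DMSO. Apol9b, whose probe may not tell it from its near-identical copy Apol9a, was lower on b as well, by -1.01 with GW3965 and -1.04 with DMSO. Apol8 was higher on b, by 1.38 with GW3965 and 1.29 with DMSO, the same direction as Apoa4. The log2 differences between GW3965 and DMSO were -0.08 ± 0.78 for Apof, 0.03 ± 0.69 for Apon, 0.28 ± 0.50 for Apol9b and -0.12 ± 0.64 for Apol8, none of which passed limma's test (unadjusted p of 0.923, 0.966, 0.604 and 0.863).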
